A study of Mus musculus with 22 samples.

Results

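Mouse tumours carrying 1 of 2 different lesions of the same chromatin remodelling machinery, each begun in the Myf5 lineage, were compared by RNA sequencing: 3 Snf5-null tumours against 3 tumours with the SS18-SSX fusion. These 6 libraries were taken by their titles and column headers from the 22 of the series. The other 16, which hold tumours started by other routes or with both lesions together, were left aside. The Snf5-null libraries, N30, N31 and N33, have the genotype SNF5-/- in the labels, and Snf5 is the older name of Smarcb1. The SS18-SSX libraries, N381, N428 and N460, are labelled SS18-SSX+/-, with no statement on Smarcb1. The 6 titles name Myf5 without the word Cre, and other titles of the series write Myf5Cre. Myf5 is switched on early in skeletal muscle precursors, so a Cre placed under its control recombines in that lineage and in all its descendants. Tissue was fresh frozen whole tumour, and poly(A) RNA was made into stranded libraries. The strain is given as C57BL with a number that climbs by 1 from sample to sample, so only the stem can be read. The labels used here give no age and do not say whether each library came from a separate animal, so p-values measure the spread between these libraries. The Snf5-null libraries carry 1 sequencing number series and the SS18-SSX libraries another, so genotype and number series cannot be told apart in any value below.

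BAF (SWI/SNF) complexes use the ATPase Smarca4 or Smarca2 to slide and evict nucleosomes, and they open enhancers against the repression laid down by Polycomb complexes. Smarcb1 is a core subunit of the canonical BAF and PBAF forms and is absent from the noncanonical form. Its loss is the defining lesion of malignant rhabdoid tumours. SS18-SSX, the driver of synovial sarcoma, joins the BAF subunit SS18 to an SSX tail, enters BAF in place of normal SS18 and displaces Smarcb1 from many complexes. The comparison asks how far tumours with these related lesions share a transcriptome when the lineage of origin is the same.

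The libraries held 16059420 to 25177722 counts assigned to genes. Levels are given as CPM, counts divided by the TMM-scaled library size and brought to a common total, and can be compared between libraries for 1 gene but not between genes. Libraries of the same genotype correlated across genes at r = 0.834 to 0.985 (log2 CPM), and libraries of different genotype at 0.674 to 0.722. N31 and N33 were the closest pair (0.985) and differed by far more than sampling noise, with a chi-square of 64.45 per degree of freedom. N30 and N381 stood apart within their groups by skeletal muscle RNA: the summed level of 28 mature muscle genes was 22620 CPM in N30 against 1906 in N31 and 1580 in N33, and 21560 CPM in N381 against 140.4 in N428 and 884 in N460.

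Smarcb1, the targeted gene, was measured at 20.1, 11.1 and 13.0 CPM in N30, N31 and N33 and at 52.5, 79.1 and 64.0 CPM in N381, N428 and N460. All Snf5-null libraries were below all SS18-SSX libraries, the direction of the SNF5-/- label, which itself states no RNA level. The difference was -2.15 on the log2 scale (SE 0.31, n = 3 and 3, edgeR's quasi-likelihood test, adjusted p = 0.00526). The remaining counts in the Snf5-null tumours come from bulk tissue, in which fewer cells of a type and less RNA per cell cannot be told apart. The source of these remaining counts was not tested. Ss18, the mouse gene of the BAF subunit that the fusion contains, stood at 86.2, 85.0 and 82.4 CPM against 110.3, 171 and 169.9 CPM (-0.83, SE 0.23, adjusted p = 0.0357). That call was lost in 7 of 15 other fits, with adjusted p up to 0.156. No value for the fusion transcript itself was analysed here. Tle1, a corepressor of Wnt and Notch target genes and a stain that pathologists use for synovial sarcoma, was at 41.0, 28.7 and 30.3 CPM in the Snf5-null libraries and 266, 370.1 and 409.9 CPM in the SS18-SSX libraries. It fell by 3.39 on the log2 scale (SE 0.28, adjusted p = 0.00146), and the groups were far apart.

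Across 16576 tested genes, 2400 were higher in the Snf5-null tumours, or 14.5% of those tested, and 2870 were lower, or 17.3%, at an adjusted p below 0.05. Together 31.8% of tested genes were called, and 223 of the higher and 682 of the lower calls exceeded 32-fold. These counts depend on N31 and N33. With both summed into 1 library the counts were 1021 higher and 1172 lower of 17662 tested genes. Without N31 they were 930 and 1095 of 17608, and without N33 948 and 1088 of 17652. List counts given below for these fits are to be read against these lower totals, not against 14.5% and 17.3%. No called gene was called in the opposite direction in any of 15 other fits. The median difference over all tested genes was -0.073 on the log2 scale. The libraries of the groups did not overlap for 8631 of the tested genes, or 52.1%. Among the 5270 called genes 5239 did not overlap. A statement below that the groups did not overlap for a called gene therefore adds little to its call. In the lists below, leaving out N31 or N33 gave counts close to those with both summed unless a value is given. Below, differences and list medians are log2 values, Snf5-null minus SS18-SSX, and CPM values run in the order N30, N31, N33 and N381, N428, N460.

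**Figure D1:**
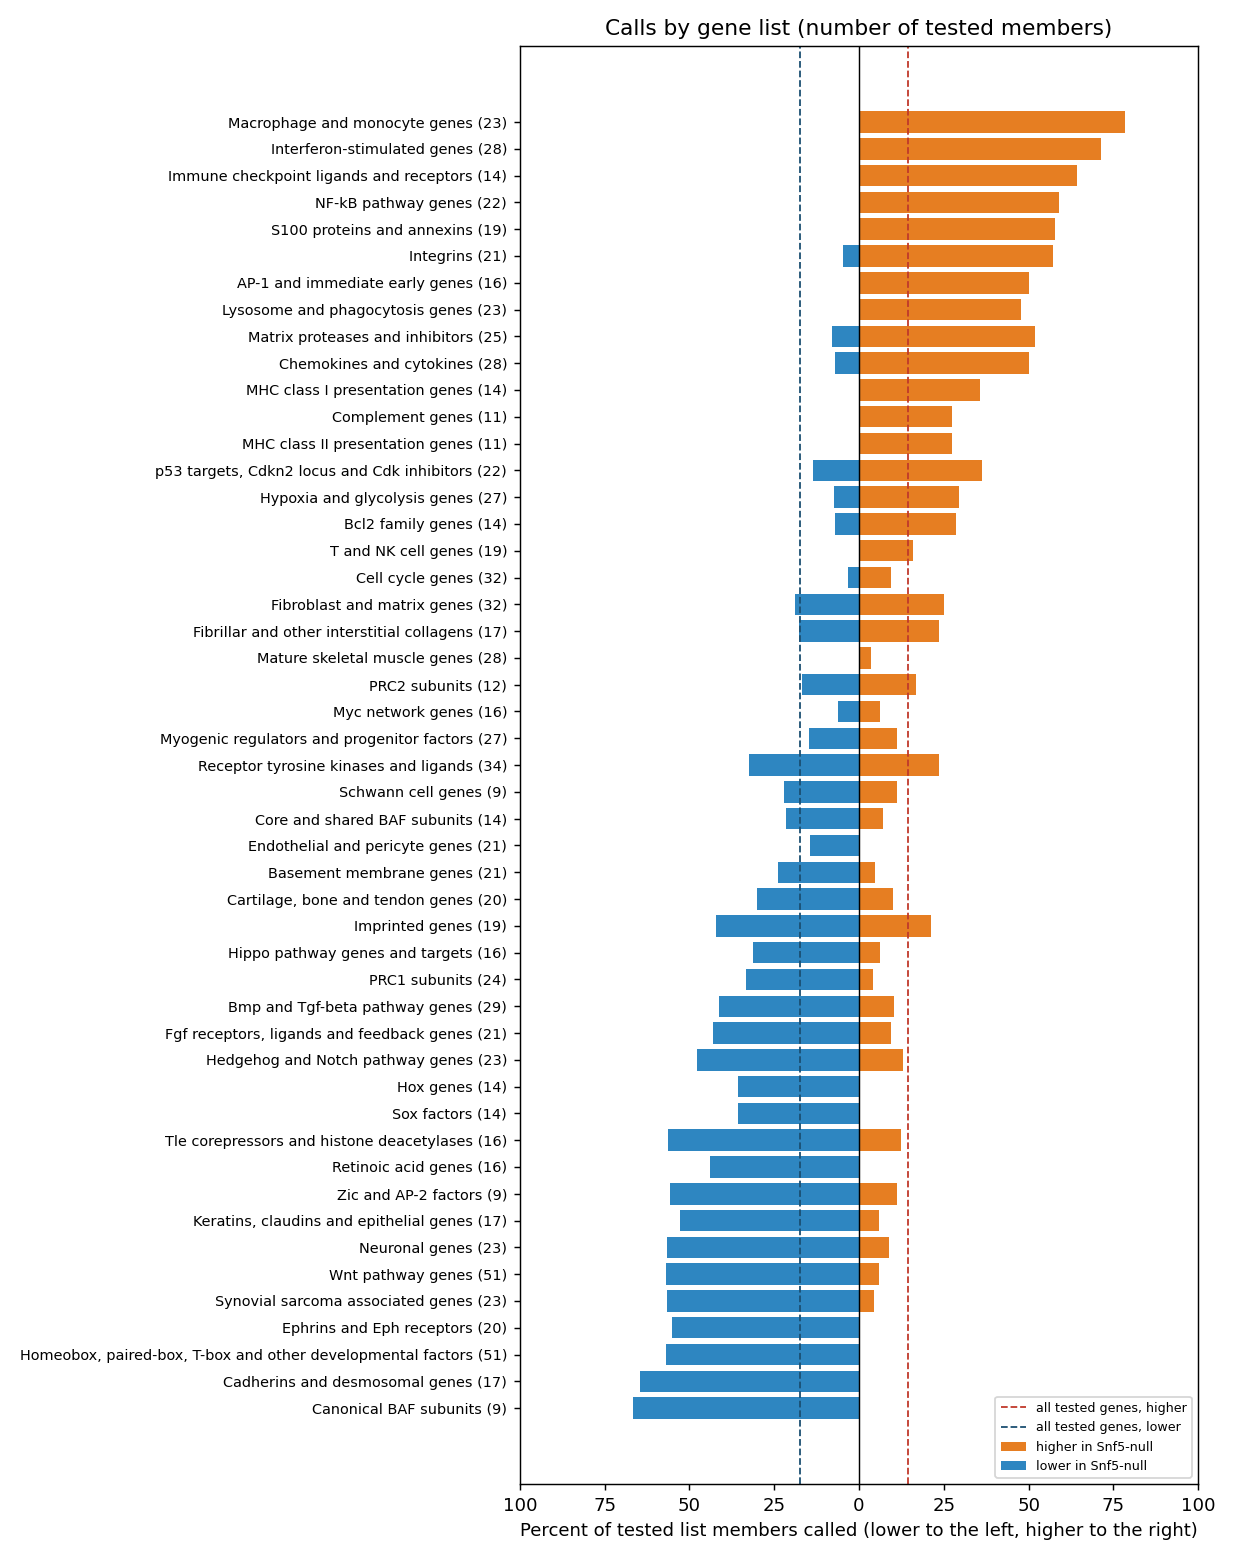
Percent of the tested members of each gene list (number tested in parentheses, lists with at least 9 tested members) called lower, to the left, or higher, to the right, in Snf5-null tumours. Dashed lines mark the same percentages over all tested genes, 17.3 lower and 14.5 higher. Immune, interferon, NF-kB, S100 and integrin lists lie at the top, and canonical BAF, cadherin, developmental factor and Wnt lists at the bottom.

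Among the BAF subunits, Bcl11a, Bcl11b, Dpf1 and Smarca2 were lower in the Snf5-null tumours. In a list of 9 canonical subunits, which holds Ss18 and Ss18l1 although both also enter noncanonical BAF, 6 fell and 0 rose, with a median of -1.2 on the log2 scale against -0.073 over all tested genes. With N31 and N33 summed 3 of the 6 calls remained, those of Bcl11a, Bcl11b and Dpf1, and 3 were also left without N31, without N33 or without N460. Bcl11b, a zinc-finger subunit of T cell and neural BAF, was at 5.51, 2.71 and 1.78 CPM in the Snf5-null libraries and 92.1, 180.5 and 117 CPM in the SS18-SSX libraries, a difference of -5.28 (SE 0.54, adjusted p = 0.00212). Its relative Bcl11a stood at 15.8, 25.5 and 19.5 against 126, 78.2 and 65.2 CPM (-2.15, SE 0.33, adjusted p = 0.00629). Dpf1, the neuronal BAF reader of acetylated histones, was at 0.909, 1.09 and 1.23 against 7.62, 10.9 and 8.44 CPM (-3.05, SE 0.45). For all 3 genes the groups were apart in every library. Of 14 core and shared subunits 1 rose (7.14%) and 3 fell (21.4%), against 14.5% and 17.3% of all tested genes. The 3 that fell include Smarcb1, whose loss is the genotype itself. Smarca2, the alternative ATPase, fell most among them, from 379.7, 366 and 383 CPM in the SS18-SSX libraries to 66.7, 42.5 and 35.8 CPM in the Snf5-null libraries (-2.96, SE 0.30, adjusted p = 0.00202). The other ATPase, Smarca4, missed the threshold at 0.53 (SE 0.23, adjusted p = 0.122), as did the scaffold Smarcc1 at -0.11 and the canonical subunit Arid1a at 0.13. None of the 4 PBAF subunits was called in the 6 libraries, where Pbrm1 was at -0.26 and Arid2 at -0.40. Without N381, 2 of the 4 were called lower. Of 3 noncanonical subunits 2 were called lower, Brd9 (-0.82) and Bicral (-1.35), neither with N31 and N33 summed, and 0 or 1 with any 1 library left out. The Actl6a call in the other direction (1.59) was also lost in that fit, and 10.1% of its 50-base stretches recur in other genes.

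Among Polycomb subunits, which BAF opposes on chromatin, Bcor and Pcgf2 fell and Pcgf5 rose. Of 24 PRC1 subunits 8 fell and 1 rose (median -0.57; 4 and 1 with N31 and N33 summed), and of 12 PRC2 subunits 2 fell and 2 rose (0 and 1 in the summed fit), the latter close to the shares over all tested genes. Without N31 or without N33, 4 PRC1 and 0 PRC2 subunits fell. Bcor, which assembles the variant PRC1.1 complex, was at 61.9, 77.2 and 64.5 CPM in the Snf5-null and 606, 1106 and 887 CPM in the SS18-SSX libraries (-3.67, SE 0.33, adjusted p = 0.00166). Pcgf2, a RING finger partner of canonical PRC1, stood at 7.70, 6.35 and 8.40 against 32.1, 29.6 and 31.3 CPM (-2.05, SE 0.26, adjusted p = 0.00359). Pcgf5, its counterpart in a variant complex, went the other way, at 29.5, 34.1 and 33.6 against 4.31, 5.66 and 4.46 CPM (2.75, SE 0.27, adjusted p = 0.00201). All libraries of 1 group lay outside the range of the other for these genes. Kdm2b, the DNA-binding partner of Bcor, missed the threshold at -0.14 (SE 0.29, adjusted p = 0.743), and so did the PRC2 methyltransferase Ezh2 at -0.60 (SE 0.44, adjusted p = 0.32).

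**Figure D2:**
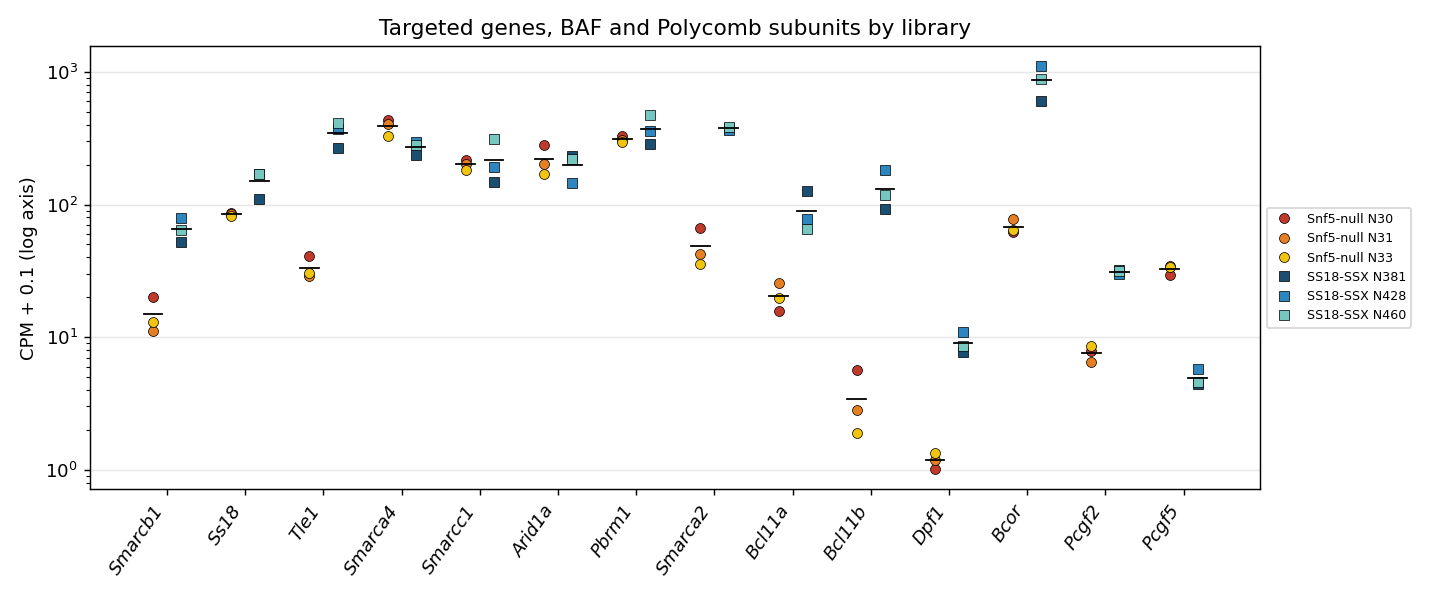
Level of each gene in each library, as CPM plus 0.1 on a log axis, with circles for Snf5-null and squares for SS18-SSX libraries and a line at each group's mean. Smarcb1, Tle1, Smarca2, Bcl11a, Bcl11b, Dpf1, Bcor and Pcgf2 are separated downward in Snf5-null libraries and Pcgf5 upward, while Smarcc1, Arid1a and Pbrm1 overlap.

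Developmental transcription factors were lower in the Snf5-null tumours, many of them close to absent. Of 65 homeobox, paired-box, T-box and related factors 51 were tested, and 29 of these fell while 0 rose, with a median of -3.71. With N31 and N33 summed 19 were called lower, and without N33 18. Msx1, a homeobox factor of limb and craniofacial mesenchyme, was at 1.03, 0.937 and 1.37 CPM in the Snf5-null and 128, 250.5 and 169 CPM in the SS18-SSX libraries (-7.36, SE 0.40, adjusted p = 0.000779). Meis2, a Hox cofactor, stood at 1.45, 0.416 and 0.752 against 134, 204 and 83.0 CPM (-7.33, SE 0.63, adjusted p = 0.00154). Irx1, a patterning factor, was at 0.303, 0.364 and 0.615 against 27.4, 105 and 69.9 CPM (-7.30, SE 0.67). All 3 were near the detection limit in every Snf5-null library and well expressed in every SS18-SSX library. Foxc1, a forkhead factor of mesoderm, was also low in all Snf5-null libraries, at 1.03, 0.625 and 0.342 CPM, but uneven among the SS18-SSX libraries, at 224, 26.4 and 187 CPM (-7.75, SE 0.9958, adjusted p = 0.0038). Of 39 Hox genes only 14 passed the low-count filter. Of those 5 were called lower, but none with N31 and N33 summed or without either of them, and 10 without N428 or without N460, and Hoxc5 missed the threshold at -5.27 (adjusted p = 0.0712) with overlapping groups.

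Of 9 Zic and AP-2 factors tested, which act in neural crest and dorsal neural tube, 5 fell, 1 rose and 3 missed the threshold. The counts of calls were the same with N31 and N33 summed. Tfap2e was the member that rose, at 6.00, 5.31 and 5.33 CPM against 0.110, 0 and 0.189 CPM (5.68, SE 0.97, adjusted p = 0.00841). Zic2 was at 0.242, 0.208 and 0.137 CPM in the Snf5-null and 102, 522 and 343 CPM in the SS18-SSX libraries (-10.62, SE 0.85, adjusted p = 0.0014). Tfap2c stood at 0.303, 0.260 and 0.410 against 101, 47.6 and 93.4 CPM (-7.95, SE 0.46, adjusted p = 0.000782). Tfap2b had 0 counts in all Snf5-null libraries and 55.7, 116 and 5.64 CPM in N381, N428 and N460, at least 928-fold higher in the SS18-SSX group when 3 counts over the Snf5-null group are taken as the floor. N460 was the lowest SS18-SSX library for Tfap2b. Of 14 Sox factors 5 fell and 0 rose (3 fell without N31). Sox2, a stem cell and neural factor, was at 0, 0.260 and 0.273 against 13.2, 118 and 41.9 CPM (-8.29, SE 1.22, adjusted p = 0.00547), and Sox11 fell by 4.13 (SE 0.48, adjusted p = 0.00284). The SS18-SSX libraries differed widely in Sox2, with N428 highest and N381 lowest.

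Genes associated with synovial sarcoma were mostly lower in the tumours without the fusion. Of 23 tested 13 fell and 1 rose (median -2.27; 10 and 1 with N31 and N33 summed). Pdgfra, a growth factor receptor of mesenchyme, was at 19.9, 10.4 and 9.22 CPM in the Snf5-null and 487, 459 and 687 CPM in the SS18-SSX libraries (-5.37, SE 0.43, adjusted p = 0.0014). Epha4, an ephrin receptor, was at 1.57, 1.35 and 1.37 against 380.4, 606 and 400.0 CPM (-8.33, SE 0.35, adjusted p = 0.000724). Neither gene overlapped between the groups, and N30 was the highest Snf5-null library for both. Bcl2, the anti-apoptotic protein stained for in synovial sarcoma diagnosis, was the 1 member that rose, at 94.7, 209.5 and 174 against 38.4, 45.3 and 53.4 CPM (1.80, SE 0.33, adjusted p = 0.0104). The list was compiled with earlier results of these data known and is no independent evidence of its direction.

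Many Wnt signalling genes were lower in the Snf5-null tumours, among ligands, receptors and targets. Of 51 tested 29 fell and 3 rose (median -2.54, with 17 and 2 when N31 and N33 were summed). The 3 that rose were the ligands Wnt2 (6.83, adjusted p = 0.0178) and Wnt11 (1.44, adjusted p = 0.00938) and the receptor Fzd4 (3.30, adjusted p = 0.0191). Among the ligands, Wnt5a was at 11.6, 1.51 and 1.44 CPM in the Snf5-null and 982, 258 and 1162 CPM in the SS18-SSX libraries (-7.37, SE 1.21, adjusted p = 0.00757). Among the receptors, Fzd10 stood at 0.303, 0 and 0.205 against 62.3, 142 and 168 CPM (-9.52, SE 0.89, adjusted p = 0.00182). N30 held most of the little Wnt5a found in the Snf5-null group, and no Snf5-null library came near the SS18-SSX range for either gene. Lef1, a member of the Tcf/Lef factors through which beta-catenin acts on DNA, was at 1.27, 0.885 and 1.02 against 85.2, 169 and 139.5 CPM (-6.95, SE 0.39, adjusted p = 0.000779). Of its 50-base stretches 13.7% recur in other genes. Axin2 and Nkd1, feedback inhibitors widely read as targets of the pathway, differed by -4.94 (SE 0.59, adjusted p = 0.0031) and -5.61 (SE 0.58, adjusted p = 0.00223). Sp5, another direct target, had 0 counts in the Snf5-null libraries and 5.36, 31.5 and 16.3 CPM in N381, N428 and N460, at least 307-fold higher.

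Other signalling families moved the same way in part. In the Bmp and Tgf-beta list 12 of 29 tested genes fell and 3 rose. With N31 and N33 summed 8 fell and 2 rose, and 7 fell without N31 and 6 without N33. Bmp4 was at 0.606, 0.729 and 0.273 CPM in the Snf5-null and 88.3, 34.5 and 192 CPM in the SS18-SSX libraries (-7.58, SE 0.83, adjusted p = 0.00258). The ligand Bmp3 rose (6.11, adjusted p = 0.0123), as did the receptors Tgfbr1 (1.25) and Tgfbr2 (1.33). In the Fgf list 9 of 21 fell and 2 rose (7 and 1 in the summed fit; 5 fell without N31), with the receptor Fgfr3 at -5.80 (SE 0.73, adjusted p = 0.00353) and Fgfr2 at -2.90 (SE 0.52, adjusted p = 0.00948). Fgfr4, a receptor of muscle progenitors, went the other way and is given with the muscle genes. In the Hedgehog and Notch list 11 of 23 fell and 3 rose (5 and 1 with N31 and N33 summed, and 1 rose without N30). The Hedgehog receptor and target Ptch1 fell by 3.21 (SE 0.40, adjusted p = 0.00353) and the Notch target Hes1 by 3.19 (SE 0.27, adjusted p = 0.00146), while the receptor Notch3 rose by 2.03 (SE 0.27, adjusted p = 0.00424). Of 20 ephrins and Eph receptors 11 fell and 0 rose (5 in the summed fit), and of 17 cadherin and desmosomal genes 11 fell and 0 rose (8 in the summed fit).

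Epithelial and neuronal genes, both reported features of synovial sarcoma, were lower in the Snf5-null tumours. Of 17 epithelial genes tested 9 fell and 1 rose (median -3.67; 7 and 0 with N31 and N33 summed, and 4 rose without N381), and of 23 neuronal genes 13 fell and 2 rose (median -2.59; 7 and 2 with N31 and N33 summed). Epcam, an epithelial adhesion molecule, was at 0.424, 0.677 and 1.37 CPM in the Snf5-null and 25.8, 20.4 and 21.2 CPM in the SS18-SSX libraries (-4.77, SE 0.54, adjusted p = 0.0027). Krt18, a simple-epithelium keratin, stood at 0.121, 0.312 and 0.547 against 20.5, 56.2 and 9.57 CPM (-6.45, SE 0.93, adjusted p = 0.00526). Both were modest in the SS18-SSX libraries and close to absent in the others. Sez6, a neuronal membrane protein, reached 217, 4630 and 733 CPM in N381, N428 and N460 and 2.67, 0.260 and 2.19 CPM in the Snf5-null libraries (-10.10, SE 1.71, adjusted p = 0.0081), with N428 far above the rest. Snap25, a protein of synaptic vesicle release, rose instead, at 221, 244 and 234 against 3.81, 1.24 and 0.151 CPM (7.09, SE 1.06, adjusted p = 0.00576).

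Among muscle lineage genes Pax3 and Pax7 were lower in the Snf5-null tumours, and Myf5, Fgfr4 and Itga7 were higher. Pax3 and Pax7, the paired-box factors of muscle precursors, were at 2.12, 0.104 and 0.683 and 0.606, 0.0521 and 0.0683 CPM in N30, N31 and N33. In N381, N428 and N460 they reached 129.5, 103 and 173 and 55.7, 55.6 and 65.4 CPM. The differences were -7.13 (SE 0.94, adjusted p = 0.00416) and -7.90 (SE 0.82, adjusted p = 0.00224), and the groups were widely separated. Myf5, whose control elements drive the Cre, went the other way, at 107, 141 and 133 CPM in the Snf5-null and 0.442, 0 and 0.0378 CPM in the SS18-SSX libraries (9.73, SE 0.99, adjusted p = 0.00212). The labels used here do not say whether the Cre allele interrupts Myf5. Fgfr4 stood at 331, 281 and 272 against 0.607, 1.10 and 1.36 CPM (8.14, SE 0.40, adjusted p = 0.000724), and Itga7, the laminin receptor of muscle cells, at 597, 537 and 646 against 20.1, 1.80 and 3.06 CPM (6.16, SE 1.04, adjusted p = 0.00808). Myf5, Fgfr4 and Itga7 were high in every Snf5-null library, and the muscle-rich N30 was the highest of them for Fgfr4 alone. Myod1, which commits cells to muscle, was at 18.2, 1.77 and 0.615 against 2.04, 0.414 and 0.189 CPM (2.97, SE 1.47, adjusted p = 0.165), and Myog, which starts differentiation, at 10.4, 2.40 and 3.48 against 16.3, 0 and 0.0378 CPM (-0.00, adjusted p = 0.999). For both genes the groups overlapped and the muscle-rich libraries N30 and N381 were the highest of their groups. The junction genes Cdh15 (4.91, adjusted p = 0.0635) and Chrna1 (5.51, adjusted p = 0.0615) did not overlap between groups and missed the threshold, and N381 held nearly all of their SS18-SSX counts. Of 27 myogenic genes tested 3 rose (11.1%) and 4 fell (14.8%), shares below the 14.5% and 17.3% over all tested genes. Without N31 or without N33 2 fell. Without N381 alone 13 rose and 4 fell, and 14 of 28 mature muscle genes rose. Without N30 and N381, a choice made after seeing the data, 13 rose and 7 fell, and of 28 mature muscle genes 19 rose against 1 in all 6 libraries. How much of the muscle RNA came from tumour cells and how much from adjoining muscle was not tested.

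**Figure D3:**
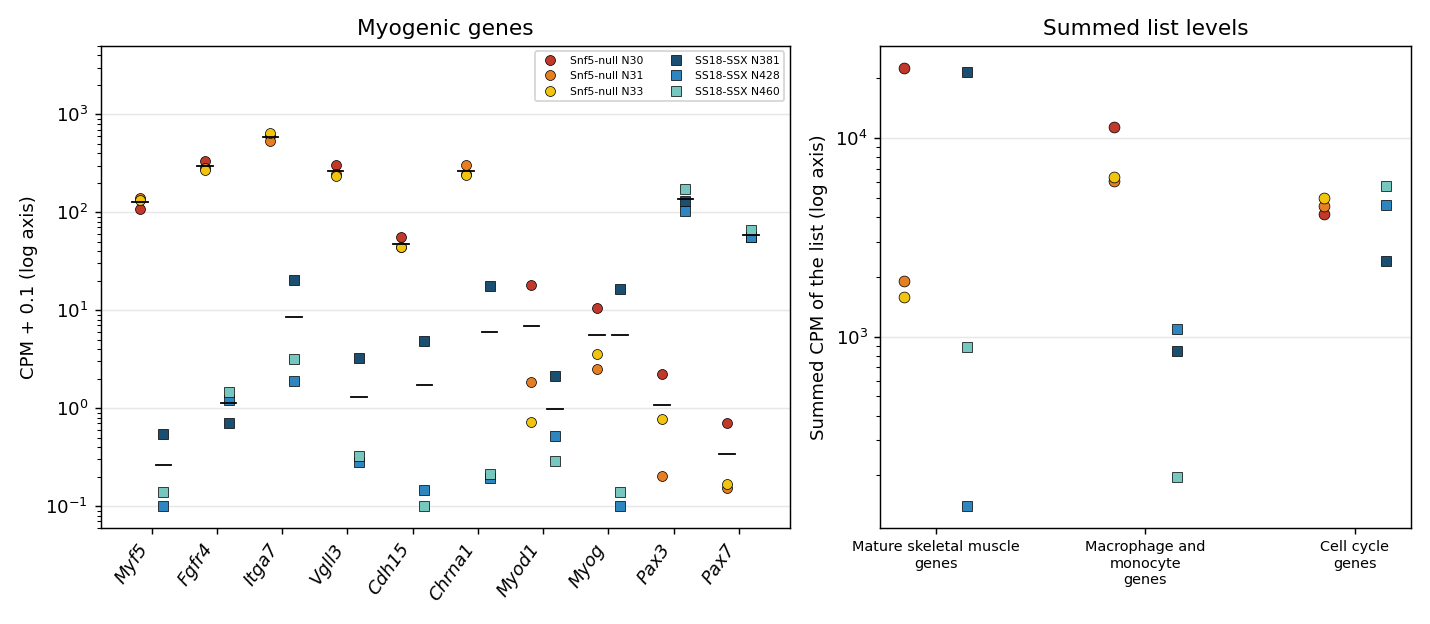
Left, level of muscle lineage genes in each library as CPM plus 0.1 on a log axis, with a line at each group's mean. Right, summed CPM of the mature muscle, macrophage and cell cycle lists in each library, on a log axis. N30 and N381 share the highest muscle sums, Myf5 is high and Pax7 low in every Snf5-null library, and the macrophage sums do not overlap between groups.

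Macrophage genes were higher in all Snf5-null libraries. The summed level of 23 macrophage and monocyte genes was 11400, 6056 and 6355 CPM in N30, N31 and N33 and 846.6, 1099 and 196 CPM in N381, N428 and N460. Of these 23 genes 18 rose and 0 fell, with a median of 3.5 (12 and 0 with N31 and N33 summed). Adgre1, which encodes the macrophage marker F4/80, was at 468, 144 and 141 against 23.6, 25.6 and 6.81 CPM (3.75, SE 0.73, adjusted p = 0.0117). Cd14, a receptor for bacterial lipid, stood at 79.9, 66.8 and 54.7 against 8.12, 2.58 and 1.36 CPM (4.07, SE 0.69, adjusted p = 0.00797). N30 was the highest library for both, and N460 the lowest. The growth factor Csf1, which macrophages need to survive, rose as well, at 443, 441 and 338 against 52.1, 19.3 and 7.19 CPM (3.96, SE 0.72, adjusted p = 0.01). Ptprc, the marker of all white blood cells, was at 483, 261 and 289 against 67.2, 19.1 and 5.26 CPM (3.50, SE 0.90, adjusted p = 0.0274), a call lost in 5 of 15 other fits with adjusted p up to 0.0734. Of 19 T and NK cell genes 3 rose (15.8%), close to the 14.5% over all tested genes, and 0 fell. None was called with N31 and N33 summed or without either of them, and 16 rose without N381. None of 7 B cell genes was called in the 6 libraries, and 4 were without N381. The part of white blood cells in the other immune lists below was not tested.

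Secreted signals and surface molecules that act on myeloid cells were also higher in part. Of 28 chemokine and cytokine genes 14 rose and 2 fell (median 3.08; 9 and 2 with N31 and N33 summed; 8 rose without N31 or without N33). Cxcl5, a neutrophil attractant, was at 22.4, 186 and 169.5 CPM in the Snf5-null and 0.166, 0.0921 and 0.0378 CPM in the SS18-SSX libraries (10.31, SE 1.14, adjusted p = 0.0026), and its receptor Cxcr2 at 11.1, 48.3 and 44.9 against 0.0552, 0.0921 and 0.114 CPM (8.50, SE 0.81, adjusted p = 0.00184). N31 and N33 were well above N30 for this pair, the reverse of their order for the macrophage genes. Of 14 checkpoint genes 9 rose and 0 fell (5 in the summed fit, 5 without N30 or without N428, and 4 without N31 or without N33). Vsir, an inhibitory receptor of myeloid and T cells, stood at 509, 493 and 327 against 40.6, 22.9 and 15.1 CPM (4.08, SE 0.45, adjusted p = 0.0026), and Cd47, the signal that restrains engulfment, at 239, 393 and 389 against 79.1, 57.5 and 65.6 CPM (2.34, SE 0.28, adjusted p = 0.00329).

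Interferon-stimulated genes were higher in the Snf5-null tumours. Of 28 tested 20 rose and 0 fell, with a median of 3.07 (13 with N31 and N33 summed, 11 without N31, 13 without N33 and 27 without N30 and N381). Bst2, or tetherin, was at 178, 206 and 154 CPM in the Snf5-null and 18.4, 9.62 and 4.92 CPM in the SS18-SSX libraries (4.03, SE 0.51, adjusted p = 0.00371). Rsad2, or viperin, stood at 54.9, 166 and 71.9 against 5.13, 1.01 and 3.18 CPM (4.98, SE 0.74, adjusted p = 0.00575). The groups did not overlap for either gene. Ifih1, the cytosolic RNA sensor MDA5, rose by 2.47 (SE 0.41, adjusted p = 0.0076), and the regulators Irf1 and Irf7 by 1.99 (SE 0.28, adjusted p = 0.00479) and 3.54 (SE 0.74, adjusted p = 0.0148). Of 14 MHC class I genes 5 rose and 0 fell (3 in the summed fit and 8 without N381). The immunoproteasome subunit Psmb10 rose by 2.67 (SE 0.22, adjusted p = 0.00141), while B2m, the shared light chain, was at 1234, 1094 and 704 against 1682, 593 and 693 CPM with overlapping groups (0.03, SE 0.48, adjusted p = 0.969).

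Many promoters of the interferon list hold the same short sequence. RefSeq promoter windows (GRCm38.p6, 250 bases before to 50 after a start) were searched on both strands for the core of the interferon-stimulated response element, written as GAAA, any 2 bases, GAAA. It was present in 15 of 27 windows from 23 of the 28 genes (55.6%), against 3.22% of the 14966 windows of tested genes and 3.44% of all windows. With the last base dropped, a version tried after the first counts, the shares were 63% and 7.33%. The list was chosen as interferon-stimulated genes, so its share describes the list and not the change in these tumours. The full core was in 7.05% of windows of genes that rose by at least 2 on the log2 scale. It was in 3.02% of windows of genes that fell by as much. The AP-1 motif TGANTCA was in 10.9% of windows of genes that rose by at least 2 on the log2 scale and in 4.68% of those that fell by as much. Its share was 5.29% for all tested genes and 7.81% for all windows. A kappaB motif, GGGA, any 2 bases, TTCC, was in 2.25% and 1.36% of windows of these risen and fallen genes. Its share was 1.44% for all tested genes and 1.47% for all windows. Motifs are matches of letters and were not tested as sites. Shown here, 5′ to 3′, because they hold the element are the windows of the 4 called list genes with a match, a single window and the smallest p, with the element in capitals; they lie at chr8:71537423-71537722 (minus strand), chr12:26456403-26456702 (minus strand), chr2:62646206-62646505 (minus strand) and chr11:58199306-58199605 (plus strand).
Bst2: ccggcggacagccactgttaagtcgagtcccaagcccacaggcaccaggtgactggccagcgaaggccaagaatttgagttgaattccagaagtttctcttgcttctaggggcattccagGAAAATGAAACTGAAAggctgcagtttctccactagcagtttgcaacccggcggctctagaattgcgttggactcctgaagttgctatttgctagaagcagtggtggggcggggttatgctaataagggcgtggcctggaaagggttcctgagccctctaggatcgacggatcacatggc
Rsad2: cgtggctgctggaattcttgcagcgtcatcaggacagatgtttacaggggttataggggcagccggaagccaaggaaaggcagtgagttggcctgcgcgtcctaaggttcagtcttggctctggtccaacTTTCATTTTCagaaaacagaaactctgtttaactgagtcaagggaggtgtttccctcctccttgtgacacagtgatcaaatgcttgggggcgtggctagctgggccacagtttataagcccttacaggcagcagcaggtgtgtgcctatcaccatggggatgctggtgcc
Ifih1: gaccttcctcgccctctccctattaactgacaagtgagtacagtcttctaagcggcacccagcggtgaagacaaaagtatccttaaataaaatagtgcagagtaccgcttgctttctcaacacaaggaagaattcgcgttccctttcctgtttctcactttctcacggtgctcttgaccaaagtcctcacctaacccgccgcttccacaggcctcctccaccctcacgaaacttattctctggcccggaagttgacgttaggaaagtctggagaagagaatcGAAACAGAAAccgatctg
Igtp: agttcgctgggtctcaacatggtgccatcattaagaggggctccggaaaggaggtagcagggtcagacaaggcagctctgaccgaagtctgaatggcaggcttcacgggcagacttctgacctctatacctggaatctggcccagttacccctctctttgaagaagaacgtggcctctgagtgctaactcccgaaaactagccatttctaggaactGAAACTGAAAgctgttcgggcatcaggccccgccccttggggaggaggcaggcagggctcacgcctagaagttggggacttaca
Igtp, an interferon-induced GTPase, rose by 1.91 (SE 0.32, adjusted p = 0.00803), and 11.8% of its 50-base stretches recur in other genes. CG pairs were counted in the same windows. The median was 17 for all genes called higher and 18 for all called lower. It was 7 for genes that rose by at least 2 on the log2 scale, 17 for those that fell by as much and 19 for all tested. Over all windows the median was also 7. Among those of the 30 genes with the largest changes that have a window the counts overlapped widely, from 2 in S100a9 to 20 in Fgfr4 for those that rose and from 1 in a window of Nebl to 32 in Foxc1 for those that fell.

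NF-kB, AP-1, matrix protease, integrin and S100 genes were higher in the Snf5-null tumours in part. Of 22 NF-kB pathway genes 13 rose and 0 fell (median 1.72; 7 in the summed fit), among them the inhibitor Nfkbia at 1.79 (SE 0.24, adjusted p = 0.00401). Of 16 AP-1 and immediate early genes 8 rose and 0 fell, with Fosl2 at 2.96 (SE 0.46, adjusted p = 0.00627) and Egr2 at 4.48 (SE 0.33, adjusted p = 0.00123). Of 25 matrix proteases and inhibitors 13 rose and 2 fell (8 and 0 in the summed fit, and 0 fell without N31, N33, N381 or N460). Plau, the urokinase that activates plasmin, was at 1115, 1550 and 1702 CPM in the Snf5-null and 10.4, 4.88 and 8.59 CPM in the SS18-SSX libraries (7.51, SE 0.48, adjusted p = 0.000939). Timp1, an inhibitor of metalloproteases, stood at 674, 505 and 588 against 15.0, 6.54 and 15.9 CPM (5.56, SE 0.44, adjusted p = 0.0014). Both were high in all Snf5-null libraries and low in all SS18-SSX libraries. Of 21 integrins 12 rose and 1 fell (median 1.9), and the collagen receptor Itga11 was at 292, 233 and 202 against 7.46, 3.08 and 5.87 CPM (5.47, SE 0.42, adjusted p = 0.00128). Vcam1, a ligand of leukocyte integrins, stood at 1313, 1732 and 1927 against 54.3, 92.4 and 27.7 CPM (4.83, SE 0.54, adjusted p = 0.0027). Of 19 S100 and annexin genes 11 rose and 0 fell (7 in the summed fit and 6 without N33), with the calcium-binding S100a6 at 6.08 (SE 0.62, adjusted p = 0.00208) and S100a10 at 4.62 (SE 0.45, adjusted p = 0.00192).

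**Figure D4:**
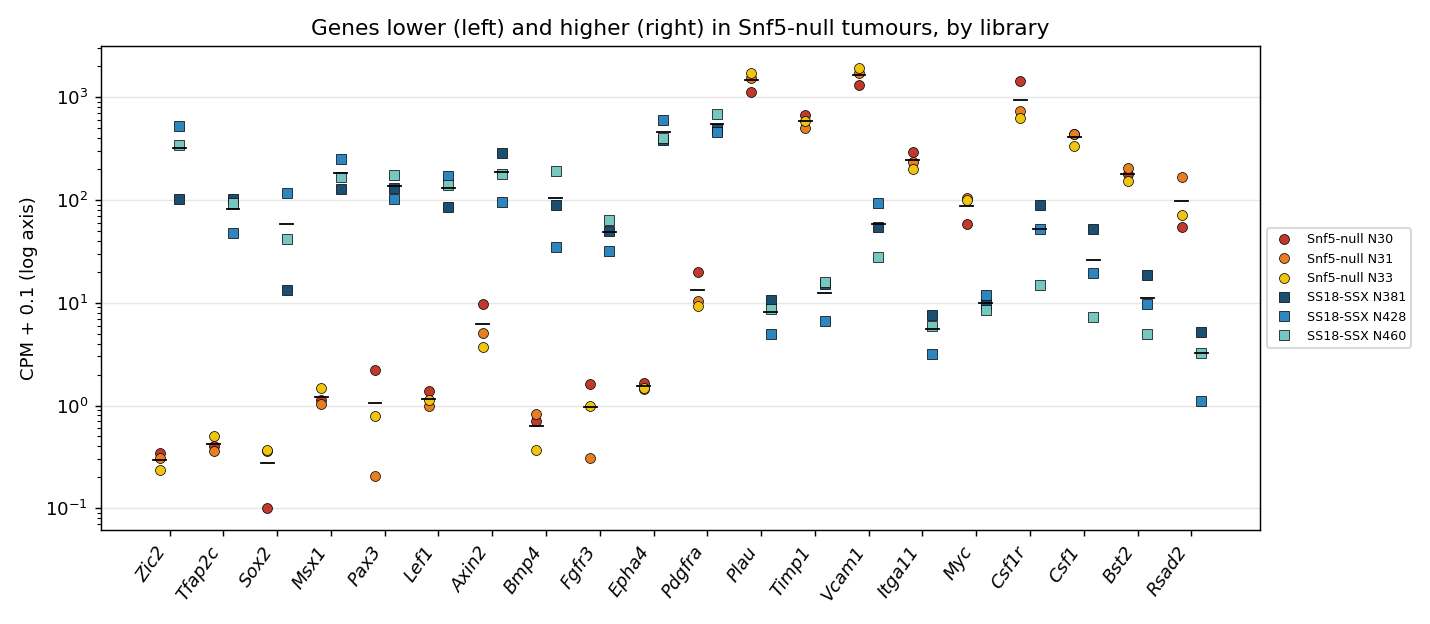
Level of named genes in each library as CPM plus 0.1 on a log axis, with circles for Snf5-null and squares for SS18-SSX libraries and a line at each group's mean. The groups do not overlap for any gene shown, which were chosen among called genes.

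Growth control genes differed in opposite directions within a family. Myc was at 58.0, 104 and 99.1 CPM in the Snf5-null and 9.72, 11.7 and 8.44 CPM in the SS18-SSX libraries (3.13, SE 0.31, adjusted p = 0.00196). Mycn, its relative in embryonic and neural tissue, stood at 0.242, 0 and 0.342 against 4.36, 27.4 and 28.3 CPM (-6.69, SE 1.23, adjusted p = 0.0102). These were the called members of 16 in the Myc list in the 6 libraries (2 rose without N30 or without N428, and 2 fell without N381), and the groups did not overlap for either. Met, the receptor of hepatocyte growth factor, rose by 3.50 (SE 0.49, adjusted p = 0.00488). Among the cyclins and their kinases, Ccnd2 was at 225, 317 and 223 against 1469, 2116 and 2305 CPM (-2.94, SE 0.35, adjusted p = 0.00305) and Cdk6 at 264, 313 and 276 against 40.7, 75.7 and 34.3 CPM (2.50, SE 0.35, adjusted p = 0.00473). Of 32 cell cycle genes 3 rose (9.38%) and 1 fell (3.12%), shares below the 14.5% and 17.3% over all tested genes. Without N460 10 of the cell cycle genes rose, without N381 8 and without N33 1. Their summed levels of 4134 to 4981 CPM lay within the 2415 to 5775 CPM of the SS18-SSX libraries. Of 22 p53 targets and Cdk inhibitors 8 rose (36.4%) and 3 fell (13.6%), against 14.5% and 17.3% of all tested genes. In the summed fit 3 rose and 1 fell, and without N30 1 fell. Mdm2 rose by 1.57 (SE 0.21, adjusted p = 0.0043) and Ccng1 by 1.51 (SE 0.25, adjusted p = 0.00772).

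Several of the largest single differences lay in genes not yet described. Pcsk1, a protease that processes prohormones, was at 607, 631 and 577 CPM in the Snf5-null and 0.387, 0.737 and 0.303 CPM in the SS18-SSX libraries (10.30, SE 0.47, adjusted p = 0.000724). Prkg2, a cGMP-dependent kinase, stood at 445, 471 and 532 against 0.166, 0.184 and 0.795 CPM (10.22, SE 0.73, adjusted p = 0.00115). Vgll3, a cofactor of Tead factors, was at 304, 246 and 233 against 3.15, 0.184 and 0.227 CPM (7.82, SE 1.22, adjusted p = 0.00643). In the other direction Gpc3, a heparan sulphate proteoglycan of fetal tissue, was at 1.64, 1.56 and 2.05 against 157, 563 and 996 CPM (-8.35, SE 0.83, adjusted p = 0.00196), and Nebl, an actin-binding protein, at 0.970, 0.937 and 0.410 against 201, 204 and 241 CPM (-8.10, SE 0.41, adjusted p = 0.000724). All 5 kept their call in every alternative run.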

How the data were processed

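RNA from 6 mouse tumours was sequenced, and the authors deposited a table of raw counts per gene, which is the unit of every value used. Per the submitters' processing notes the build was mm10 and the tools included STAR 2.7.5a, cutadapt, DESeq2, RSEM and featureCounts. Neither the counting tool nor its strand setting is stated for the table. Of 48440 gene IDs 48058 were matched to a symbol and position in GENCODE M21. Genes were kept with edgeR's filterByExpr (minimum count 10, minimum total 15), which left 16576 genes with 99.76% of counts. Libraries were scaled by TMM and tested with edgeR 4.0.16 (R 4.3.3), quasi-likelihood, fitted on the 6 libraries alone, with Benjamini-Hochberg adjustment over all tested genes and a threshold of 0.05. Differences are Snf5-null minus SS18-SSX, and each standard error is the difference divided by the root of its F value. With depths of 16059420 to 25177722 counts, replicate spread limits precision more than counting. The procedure was tested on simulated counts. Changes of 1 and 2 on the log2 scale were mostly missed there, and larger sizes were added after that was seen. Far fewer genes were changed in the simulation, which gave 88 calls against 5270 here, so its adjusted threshold was stricter. Its recovery does not carry over to the reported fit. A gene that missed the threshold may still differ, by an amount the simulation cannot give. The members and gene lists were chosen with earlier results of these data known. Named genes were the BAF subunits, Smarcb1, Ss18, Tle1 and Ptprc, the 15 largest changes in each direction among called genes with a mean log2 CPM of at least 3 and no overlap between groups, up to 4 called members per list and direction by smallest p, and the 5 missed members with the largest differences. From these, genes were picked for the text after their stability was seen: of 484 called genes of the lists or with the largest changes, 252 kept their call in all 15 alternatives and 232 lost it in at least 1. Examples therefore lean towards stable genes, and list counts hold all members. Genes sharing 50-base stretches with other genes may have uncertain counts: the share was 11.6% for Fgfr3, 12.5% for Kdm2b, 10.6% for Bicral, 6.68% for Cxcr2, 6.31% for Ccnd2 and 5.25% for Bcl2. Promoters came from RefSeq. The alternatives were RLE and upper-quartile scaling, no filter, a stricter filter, DESeq2 1.42.0, limma 3.58.1 (voom), thinning to the smallest total, each library left out, N31 and N33 summed, and, added after seeing the data, N30 and N381 left out together, which makes 15 fits. A further call rule also asked for a difference of at least 1 on the log2 scale. Some results are not reported here.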

Additional observations from a re-analysis of the deposited data

How the results depend on the processing

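The counts of 2400 higher and 2870 lower genes kept within 1.5 times under RLE scaling (2374 and 2884), upper-quartile scaling (2092 and 3186), no filter (2234 and 2990), DESeq2 (3190 and 3700, with 245 genes given no adjusted p), limma-voom (2695 and 2551), thinning (2350 and 2812) and without N30 and N381 (2923 and 3035, of which 2008 and 2413 were among the main calls). With N31 and N33 summed they fell to 1021 and 1172, of which 1015 and 1155 were among the main calls. Leaving out 1 library at a time gave 930 to 2974 higher and 1088 to 3138 lower, the low ends being without N31 (930 and 1095) and without N33 (948 and 1088). Those fits have fewer residual degrees of freedom. Upper-quartile scaling moved the median of all tested genes from -0.073 to -0.19, and its share of higher calls was 39.6% against 45.5%. No gene was called in opposite directions between any of these fits and the one reported. No paired analysis was possible because the labels give the groups no shared replicate numbers. Genes near 0 in 1 group have fitted differences that depend on the prior count, so their direction and call are firmer than their size.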

Other observations

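Genes of glucose use, lysosomes and imprinting also differed. Of 27 hypoxia and glycolysis genes tested 8 rose and 2 fell in the Snf5-null tumours, against 14.5% and 17.3% of all tested genes. With N31 and N33 summed 5 rose and 1 fell, and without N460 4 fell. The lactate dehydrogenase Ldha was at 417, 901 and 950.3 CPM in N30, N31 and N33 and 116, 152 and 147 CPM in N381, N428 and N460 (2.45, SE 0.38, edgeR adjusted p = 0.00633), with 9.26% of its 50-base stretches recurring in other genes. Vegfa, the growth factor of blood vessels that hypoxia induces, went the other way, at 27.4, 42.3 and 27.4 against 147, 123 and 153 CPM (-2.12, SE 0.26, adjusted p = 0.00318). The groups did not overlap for either gene. Of 23 lysosome and phagocytosis genes 11 rose and 0 fell (6 and 0 with N31 and N33 summed, 6 without N30, N33 or N460, and 3 without N31). Peg3, a paternally expressed imprinted gene, was at 1680, 4496 and 3938 against 242, 161 and 187 CPM (4.10, SE 0.51, adjusted p = 0.00353), in a list of 19 imprinted genes of which 4 rose and 8 fell (2 and 4 with N31 and N33 summed, 1 and 3 without N31, 1 and 5 without N33, and 3 and 5 without N30). Col2a1, the collagen of cartilage, was at 1.88, 1.56 and 2.05 against 264, 1370 and 1954 CPM (-9.35, SE 0.93, adjusted p = 0.00201), with N381 the lowest SS18-SSX library.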
